A study of Mus musculus with 2 samples.

Results

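Khk, Tkfc, Pklr, Sord and Slc2a5, 5 genes of fructose handling, were followed through the liver cells of mice fed HFCFD, a diet high in fat, cholesterol and fructose. They were taken by gene symbol from the 32285 genes of the deposited matrix, and each symbol had a single row. Their mRNA was counted as UMIs, molecular tags that count a cDNA molecule once, in single droplets of dissociated liver.

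The labels name 1 liver with the genotype "Cebp KO" and 1 with "Cebp WT", both after 2 weeks on the diet, which the labels give as a 40% HFCFD. The deletion was specific to hepatocytes per the series text. Per the study's methods it joined floxed Cebpa alleles (Cebpa fl/fl) with a Cre driven by the albumin promoter, on a background backcrossed to C57BL/6N, and only males were used. The sources used here do not give the age of these animals. The controls named in the study were Cebpa fl/fl littermates, and the label of the control liver used here says only WT. With 1 liver per genotype, no difference between libraries can be told apart from a difference between animals or preparations.

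Both livers share 1 matrix in which a barcode ends in the suffix 1 or 2, and no label ties a suffix to a genotype. Values are therefore given for a pair of unassigned libraries, without replicates and without a test, and every interval in the text is an exact 95% interval for counting error only. The library with suffix 1 held 17313 barcodes and 60048646 UMIs, and the library with suffix 2 held 15003 barcodes and 52355243 UMIs. The median mitochondrial share of a barcode was 4.07% and 41.3%, so the limit of 25% used here kept 11617 and 6088 droplets. The libraries shared 81 barcodes, of which 8 were in the deep hepatocyte-like cells described next, and without these barcodes the level of each of Khk, Tkfc, Pklr and Sord stayed within its interval. In the deep hepatocyte-like cells Cebpa, the targeted gene, was at 1.28 CPM (0.769 to 1.99) in the first library and at 111 CPM (104 to 118) in the second. CPM stands for UMIs of a gene per 1000000 UMIs, and no genotype was given to a library from these values.

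Hepatocytes take up most of the dietary fructose that leaves the gut unmetabolised. Ketohexokinase (KHK) phosphorylates fructose to fructose-1-phosphate, which is then split, and triokinase (TKFC) phosphorylates the glyceraldehyde that is released, so that the carbon joins glycolysis above liver pyruvate kinase (PKLR). Sorbitol dehydrogenase (SORD) makes fructose from sorbitol within the cell, the last step of the polyol pathway, and SLC2A5 (GLUT5) is the fructose transporter best known from the small intestine. The carbohydrate-response factor ChREBP, encoded by Mlxipl, is a textbook regulator of Pklr and of lipogenic genes when sugar intake is high.

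In the GRCm38 reference annotation (GENCODE M21), Khk (ENSMUSG00000029162) lies at chr5:30921431-30931248 on the plus strand, Tkfc (ENSMUSG00000034371) at chr19:10587791-10605654 on the minus strand, Pklr (ENSMUSG00000041237) at chr3:89136142-89146784, Sord (ENSMUSG00000027227) at chr2:122234749-122265340 and Slc2a5 (ENSMUSG00000028976) at chr4:150119283-150144169, the last 3 on the plus strand. All 5 are protein coding. Cyb561a3 and Ddb1 overlap Tkfc, and Hcn3 overlaps Pklr, each on the opposite strand. Counts were made per gene, so the A and C forms of Khk and the erythroid and liver forms of Pklr, which share their 3' ends, cannot be told apart.

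The stretches before the RefSeq start sites of Khk, Tkfc and Pklr (GRCm38.p6, each on the strand of its gene, for Pklr the downstream of 2 starts) are shown because they hold motifs of factors that act in hepatocytes, the C/EBP family of the deleted factor among them. Each stretch lies inside the GENCODE span of its gene given above, downstream of the 5' end of that span. The Khk stretch is chr5:30921481-30921510 and its capitals mark an E-box and an HNF1 core, the Tkfc stretch is chr19:10604274-10604508 and its capitals mark a C/EBP core, and the Pklr stretch is chr3:89136373-89136571 and its capitals mark the letters CACG and CGTG set 9 bases apart, the arrangement of a carbohydrate response element.
Khk: tccccgtCACGTGacaccGTTAATctggcg
Tkfc: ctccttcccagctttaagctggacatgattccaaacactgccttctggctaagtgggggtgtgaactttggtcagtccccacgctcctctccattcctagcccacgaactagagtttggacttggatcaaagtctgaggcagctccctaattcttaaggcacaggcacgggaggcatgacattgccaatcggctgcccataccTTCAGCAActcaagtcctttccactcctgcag
Pklr: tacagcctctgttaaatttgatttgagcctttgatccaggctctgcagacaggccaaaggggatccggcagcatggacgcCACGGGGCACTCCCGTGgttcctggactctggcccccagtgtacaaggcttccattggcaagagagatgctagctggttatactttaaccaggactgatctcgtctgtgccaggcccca

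The letters of 5 motifs were searched on both strands in the 250 bases before each start in the RefSeq table of 32851 promoters. The E-box CACGTG was found in 6.02% of all promoters and in Khk, at positions -71 to -66 from the start. The HNF1 core GTTAAT was found in 6.43% and also in Khk, at -60 to -55. The C/EBP core TTGCNNAA was found in 9.56% and in Tkfc, read on the opposite strand at -47 to -40. CACG and CGTG with 9 bases between them were found in 0.219% and in Pklr, at -170 to -154. No 2 of these matches overlap. The HNF4A-type CAAAGTCCA was found in 0.384% of promoters and in none of the members, and the Sord and Slc2a5 windows held none of the 5 motifs. These matches describe letters, not bound sites.

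Levels were taken first from deep hepatocyte-like cells, which carried hepatocyte marker transcripts, passed the gate of no other cell type and had at least 5000 UMIs. There were 614 of them with suffix 1 and 540 with suffix 2, with medians of 25551.5 and 12724 UMIs and of 16.3% and 15.5% mitochondrial UMIs. Khk, Tkfc and Sord were found in nearly every such cell, Pklr in most, and Slc2a5 in few. A level says how many tags were counted and is compared below between cells and libraries, not between genes.

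With suffix 1, 9128 Khk UMIs gave a level of 614 CPM (601 to 626), and with suffix 2, 5907 UMIs gave 734 CPM (715 to 753). Among single deep cells it ran from 0 CPM through a median of 554 CPM to 2877 CPM with suffix 1, and from 0 CPM through 718 CPM to 2509 CPM with suffix 2. Only 7 cells in each library had no Khk UMI. The cells of the libraries overlapped over most of this range although their sums did not.

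Tkfc had 5587 and 2869 UMIs, which gave 376 CPM (366 to 386) and 356 CPM (343 to 370). Its median per cell was 356 CPM and 314 CPM, and 17 and 28 cells had no UMI. Of the members above the level filter described below, Tkfc was the one whose libraries lay closest.

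Pklr had 2411 UMIs or 162 CPM (156 to 169) with suffix 1, and 873 UMIs or 108 CPM (101 to 116) with suffix 2. It had no UMI in 74 of 614 cells with suffix 1 and in 176 of 540 with suffix 2, and its median per cell was 144 CPM and 85.8 CPM. Since the cells with suffix 2 were shallower, the empty cells were compared at equal depth further on.

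Sord had 8541 and 3725 UMIs, or 574 CPM (562 to 586) and 463 CPM (448 to 478), with intervals that were apart. Its median per cell was 579 CPM and 440 CPM, and 2 and 11 cells had none. Slc2a5, the transporter, gave 107 UMIs with suffix 1, or 7.19 CPM (5.89 to 8.69), and 39 UMIs with suffix 2, or 4.84 CPM (3.44 to 6.62). With the mitochondrial limit at 10% in place of 25%, it was at 4.62 CPM and 3.53 CPM. It had no UMI in 525 of 614 and in 503 of 540 cells, and no cell held more than 4.

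At equal depth, with each cell thinned at random to 5000 UMIs, Khk was detected in 91.9% of cells with suffix 1 (89.4% to 93.9%) and 93.9% with suffix 2 (91.5% to 95.8%), against 98.9% and 98.7% before thinning. Tkfc was detected in 81.4% (78.1% to 84.4%) and 79.4% (75.8% to 82.8%), against 97.2% and 94.8% before thinning. The intervals of these 2 genes overlapped between the libraries. Sord was detected in 94.0% (91.8% to 95.7%) and 87.4% (84.3% to 90.1%), and Pklr in 56.0% (52.0% to 60.0%) and 39.6% (35.5% to 43.9%), against 99.7% and 98.0%, and 87.9% and 67.4%, before thinning. For these genes the intervals did not overlap, and the share was higher with suffix 1. Slc2a5 was detected in 3.42% (2.13% to 5.18%) and 2.22% (1.15% to 3.85%) of thinned cells.

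The same shares were taken in T or NK cell-like cells, which are lymphocytes, as a comparison. How much of their UMIs came from free RNA or from doublets, which were not removed, was not tested. Thinned to 5000 UMIs, 46.8% of 263 such cells with suffix 1 and 55.1% of 176 with suffix 2 still held a Khk UMI, and the cells left out as too shallow were 445 and 468. The shares were 20.5% and 21% for Tkfc, 8.75% and 9.09% for Pklr, and 39.5% and 27.3% for Sord. Slc2a5 had none in either library, which leaves room for up to 1.39% and 2.07% of cells. The shares of Khk, Tkfc, Pklr and Sord were below those of the deep hepatocyte-like cells of the same library, with intervals apart. For Slc2a5 the intervals were apart with suffix 1 and overlapped with suffix 2. Before thinning, the Khk shares of all T or NK cell-like cells were 48.4% and 55.1%, at medians of 4558 and 4201.5 UMIs.

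Khk, Tkfc, Pklr and Sord were often found together. In thinned deep cells a UMI of all 4 was seen in 252 of 614 cells with suffix 1 (41.0%, 37.1% to 45.1%) and in 146 of 540 with suffix 2 (27.0%, 23.3% to 31.0%). Exactly 3 were seen in 43.5% and 50.9%, and none in 0 of 614 cells, which allows up to 0.599%, and in 4 of 540 cells. Pklr, the member with the fewest UMIs of the 4, was the one most often missing by its own share.

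The libraries were compared gene by gene in the deep cells over 4752 genes, those that reached 20 CPM in 1 or both. Of all these genes, 2.29% were at least 2-fold higher with suffix 1 and 2.17% were at least 2-fold higher with suffix 2, and the median log2 ratio of suffix 1 to suffix 2 was 0.03. Of the 5 members, 4 passed the level filter and 0 were past 2-fold in either direction. The ratio of suffix 1 to suffix 2 was 1.49 for Pklr (1.38 to 1.62), 1.24 for Sord (1.19 to 1.29), 1.05 for Tkfc (1.01 to 1.10) and 0.836 for Khk (0.809 to 0.864), with a median log2 ratio of 0.19 over these 4. Among them Khk was the 1 lower with suffix 1. Between the quartiles of all genes, the log2 ratio ran from -0.17 to 0.24. Slc2a5 stayed below the filter.

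The direction for Tkfc depended on the limit on mitochondrial UMIs. With a limit of 10%, which left 118 and 161 deep cells with medians of 6451 and 7766 UMIs, its ratio was 0.916, while it was 1.15 for Sord, 1.65 for Pklr and 0.912 for Khk. The other settings tried kept each of these 4 genes on the same side of 1.

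**Figure D1:**
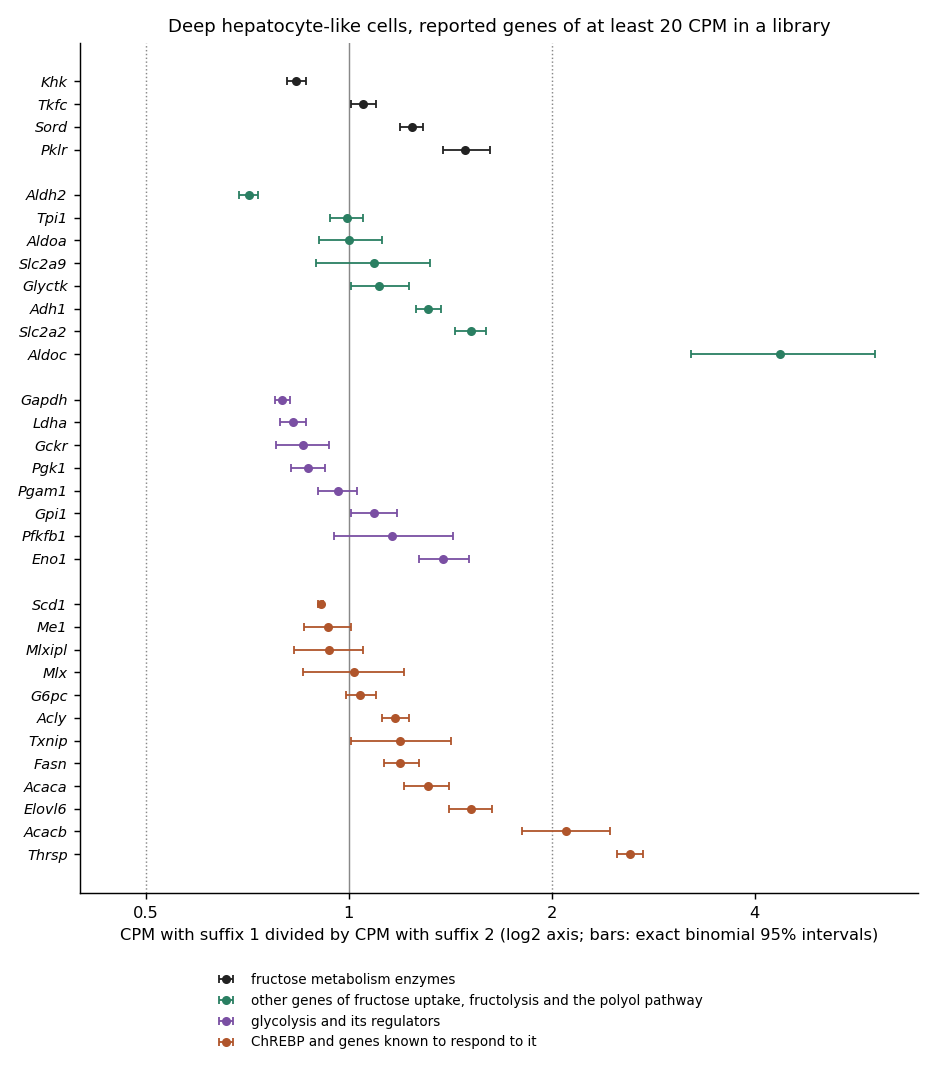
CPM with suffix 1 divided by CPM with suffix 2 in deep hepatocyte-like cells, on a log2 axis, for the members and those pathway genes of at least 20 CPM in a library that are reported here. Points are ratios of summed UMIs, bars are 95% counting intervals, and dotted lines mark 2-fold. Khk sits at 0.836 and Pklr at 1.49, inside the dotted lines, while Aldoc, Acacb and Thrsp lie to the right of them.

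Because the deep cells with suffix 1 were deeper, the libraries were also set side by side within 6 depth ranges of hepatocyte-like droplets, from 500 UMIs upwards. Pklr and Sord were higher with suffix 1 in 6 of 6 ranges, with intervals that did not overlap in any of them. Khk was higher with suffix 2 in 6 of 6 ranges, and its intervals were apart in 5. Tkfc was higher with suffix 1 in 5 ranges, with intervals apart in 3, and Slc2a5 was higher with suffix 1 in 3 and with suffix 2 in 3, with overlapping intervals throughout. How many of all genes have intervals apart in these ranges was not counted, so these numbers show nothing particular to the members.

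The members did not share 1 course with depth. Khk was as high or higher in the shallow droplets, where droplets of 500 to under 1000 UMIs had 703 CPM (672 to 736) in the first library and 947 CPM (888 to 1009) in the second, while those of 20000 UMIs and over had 625 CPM (611 to 639) and 723 CPM (697 to 750). Tkfc went the other way, from 238 CPM (219 to 257) and 228 CPM (199 to 259) to 378 CPM (367 to 389) and 345 CPM (327 to 364). Pklr also had its lowest values in the shallowest droplets, at 93.1 CPM (81.9 to 105) and 63.6 CPM (49.0 to 81.2), against 162 CPM (155 to 169) and 108 CPM (98.4 to 119) in the deepest.

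Expressed per 100 Khk UMIs, which does not depend on the other genes of the droplet, Tkfc went from 33.8 (30.8 to 37.0) with suffix 1 and 24.0 (20.7 to 27.8) with suffix 2 in the shallowest droplets to 60.5 (58.3 to 62.7) and 47.8 (44.7 to 50.9) in the deepest. Pklr went from 13.2 and 6.72 to 25.9 and 15. The shallow values were near those of the T or NK cell-like droplets, where Tkfc was at 37.2 and 20.7 and Pklr at 12.0 and 5.59 per 100 Khk UMIs. Other classes differed from these. In Kupffer cell or macrophage-like cells Tkfc was at 50 (42.4 to 58.9) and 41 (35.8 to 46.9), above the shallow droplets. In plasmacytoid dendritic cell-like cells it was at 18.3 (12.1 to 27) and 17.8 (11.3 to 26.9). The share of mitochondrial UMIs moved with depth too. Its median was 1.93% and 3.82% in the shallowest droplets and 17.0% and 16.5% in the deepest, and its part in these levels was not tested. With mitochondrial genes left out of the total, Khk was at 727 CPM and 996 CPM in the shallowest and at 750 CPM and 859 CPM in the deepest droplets.

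Sord peaked in between. With suffix 1 it was at 620 CPM (591 to 651) in droplets of 500 to under 1000 UMIs, at 889 CPM (860 to 919) in those of 2000 to under 5000 and at 548 CPM (535 to 561) in the deepest. With suffix 2 the corresponding values were 421 CPM (382 to 464), 524 CPM (495 to 553) and 423 CPM (403 to 444). With suffix 1, Alb was lower in these middle ranges, at 23568 CPM in the 1398 droplets of 2000 to under 5000 UMIs and 24941 CPM in the next range up, against 42816 CPM in the shallowest and 39036 CPM in the deepest droplets. Its part in the Sord level was not tested.

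**Figure D2:**
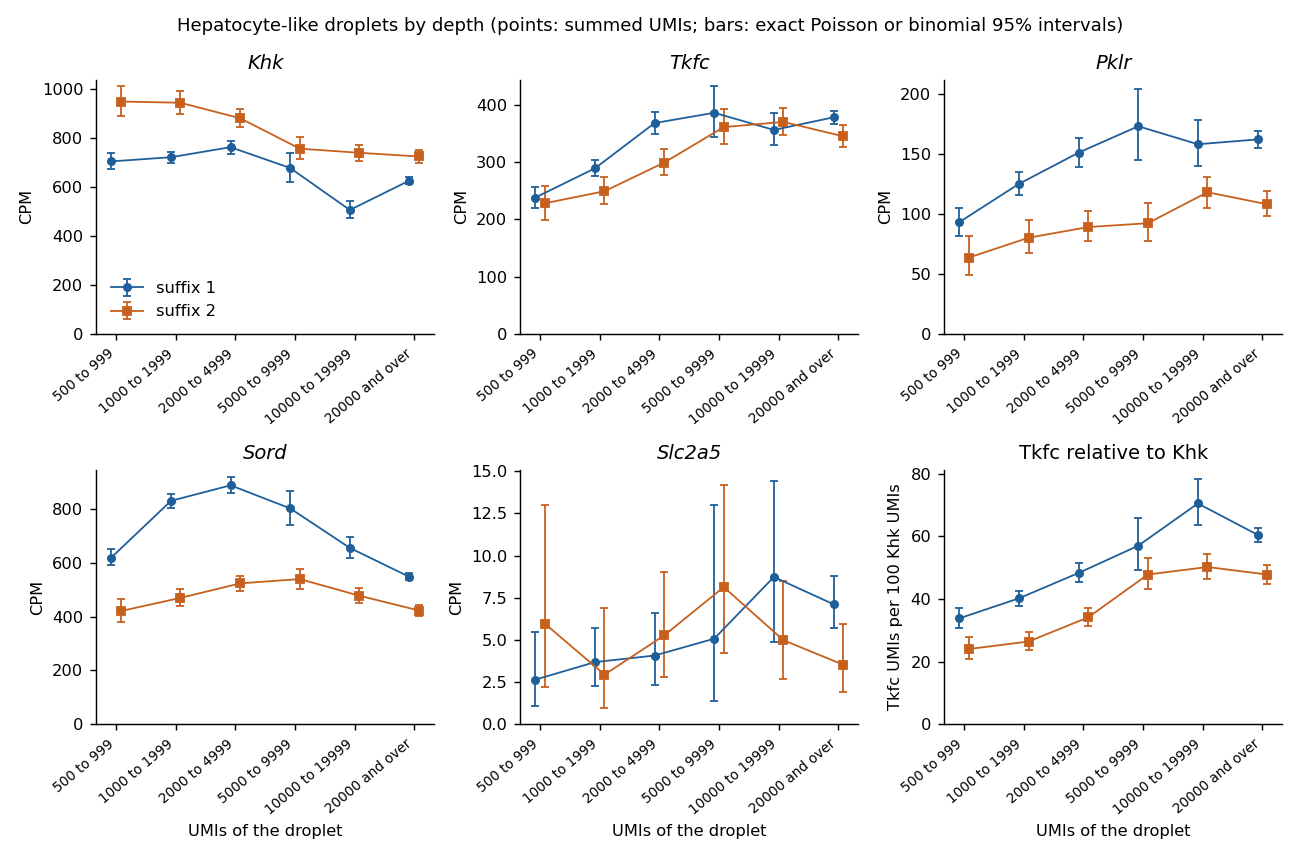
CPM of each member in hepatocyte-like droplets against the UMIs of the droplet, per library, and Tkfc UMIs per 100 Khk UMIs. Points are summed UMIs and bars 95% counting intervals. Khk is not lower in shallow droplets, Tkfc and Pklr are, Sord with suffix 1 is highest at 889 CPM in the range of 2000 to under 5000 UMIs, and the Slc2a5 intervals of the libraries overlap in every range.

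Hepatocytes differ in their enzymes along the lobule, from the portal vein to the central vein. The deep cells of each library were ranked by a score of pericentral over periportal transcripts and cut into 3 equal parts. The pericentral markers Glul and Cyp2e1 went from 60.5 CPM and 827 CPM to 24.6 CPM and 85.3 CPM from the most pericentral to the most periportal part with suffix 1, and from 65.1 CPM and 770 CPM to 5.3 CPM and 115 CPM with suffix 2. The periportal marker Cyp2f2 moved less, from 1762 CPM to 2065 CPM with suffix 1 and from 897 CPM to 1291 CPM with suffix 2. Sds, another periportal marker, went from 340 CPM to 601 CPM with suffix 1 and was at 509 CPM, 713 CPM and 701 CPM over the 3 parts with suffix 2. All 4 genes are in the score, so their order is no result. The cut is a range and not a type, with 160 of 614 and 152 of 540 cells within 0.25 log2 units of a limit.

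In CPM, Khk and Tkfc were higher in the periportal part and Sord in the pericentral part in both libraries, but per Alb UMI the order of Khk and Tkfc turned with suffix 2. From the most pericentral to the most periportal part, Khk was at 489 CPM (466 to 512), 588 CPM (567 to 610) and 705 CPM (685 to 726) with suffix 1. The corresponding levels with suffix 2 were 664 CPM (629 to 701), 760 CPM (726 to 795) and 754 CPM (726 to 783). Its ratio of the most periportal to the most pericentral part was 1.44 (1.37 to 1.53) and 1.14 (1.06 to 1.21). With suffix 2 the middle and the periportal part overlapped in their intervals.

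Tkfc was at 298 CPM, 390 CPM and 408 CPM with suffix 1 and at 300 CPM, 337 CPM and 401 CPM with suffix 2, in the same order. Its ratio was 1.37 (1.28 to 1.47) and 1.34 (1.22 to 1.48), and these intervals overlapped between the libraries while those of Khk did not. Sord ran in the opposite direction, with 678 CPM, 571 CPM and 518 CPM with suffix 1 and 577 CPM, 454 CPM and 405 CPM with suffix 2. Its ratio was 0.764 (0.725 to 0.805) and 0.701 (0.648 to 0.758).

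Pklr was at 141 CPM, 171 CPM and 167 CPM with suffix 1, with a ratio of 1.18 (1.06 to 1.32), and at 101 CPM, 108 CPM and 113 CPM with suffix 2, with a ratio of 1.12 (0.945 to 1.33) whose interval includes 1. The Slc2a5 ratio was 0.781 (0.476 to 1.30) with suffix 1 and 1.56 (0.530 to 5.53) with suffix 2, too few UMIs to place it. Depth moved with the score, since the median was 15203 UMIs in the most pericentral and 32450 UMIs in the most periportal part with suffix 1, and 8002 and 19699.5 UMIs with suffix 2. With the cells limited to 20000 UMIs or more, an alternative added once the values were known, the Khk ratio was 1.47 (1.38 to 1.58) and 1.32 (1.18 to 1.49), the Tkfc ratio 1.41 (1.30 to 1.54) and 1.52 (1.28 to 1.80) and the Sord ratio 0.787 (0.739 to 0.837) and 0.668 (0.590 to 0.757). The Khk intervals of the libraries then overlapped. The values with suffix 2 rest on 25 pericentral cells.

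Alb itself was higher toward the periportal end, going from 32004 CPM in the most pericentral to 41566 CPM in the most periportal part with suffix 1 and from 29210 CPM to 47588 CPM with suffix 2. Set against Alb in place of all UMIs, a scaling added once the values were known, the periportal to pericentral ratio of Khk was 1.11 (1.05 to 1.17) with suffix 1 and 0.697 (0.652 to 0.745) with suffix 2. For Tkfc it was 1.06 (0.982 to 1.13) and 0.823 (0.747 to 0.906), and for Pklr 0.909 (0.817 to 1.01) and 0.688 (0.580 to 0.819). Sord alone of these 4 was higher in the pericentral part on both scales in both libraries, with ratios per Alb UMI of 0.588 (0.558 to 0.620) and 0.430 (0.398 to 0.465).

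**Figure D3:**
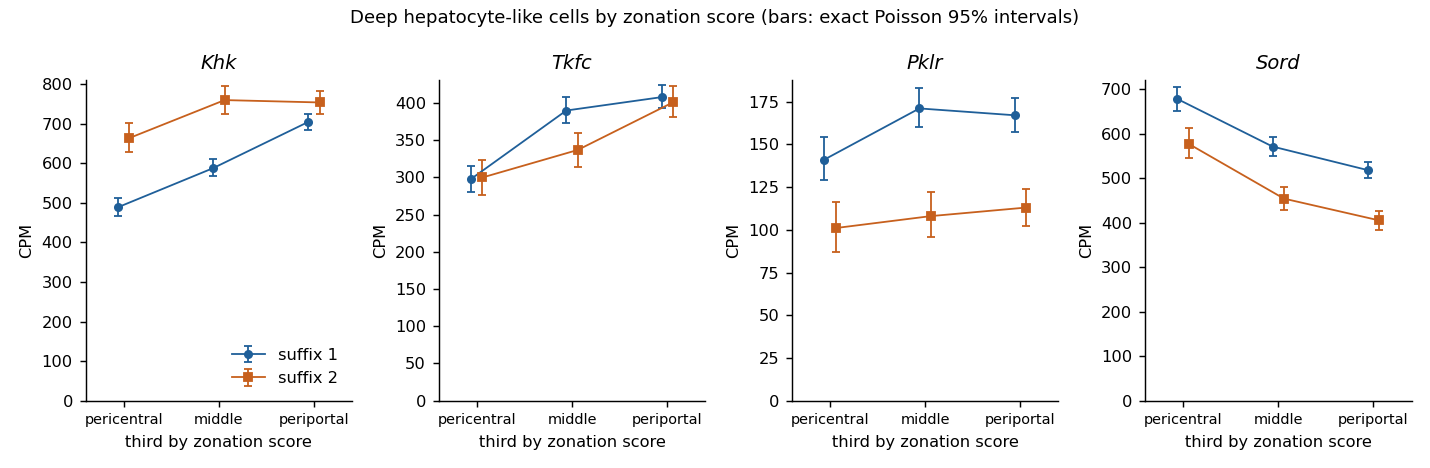
CPM of 4 members in deep hepatocyte-like cells cut into 3 equal parts by a score from pericentral to periportal transcripts, per library. Points are summed UMIs and bars 95% Poisson intervals. In CPM, Khk with suffix 1 climbs from 489 to 705, where per Alb UMI its ratio is 1.11 with suffix 1 and turns to 0.697 with suffix 2, and Sord falls from 678 CPM to 518 CPM with suffix 1 and from 577 CPM to 405 CPM with suffix 2.

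Most UMIs of every member lay in hepatocyte-like droplets, deep and shallow ones together. These held 85.4% of all Khk UMIs of kept droplets with suffix 1 and 79.4% with suffix 2, 88.0% and 84.3% of Tkfc, 87.8% and 85.9% of Pklr, 85.7% and 82.4% of Sord, and 150 of 166 and 63 of 74 UMIs of Slc2a5. The deep cells alone held 43.5% and 44.1% of Khk and 40.2% and 49.2% of Sord, and droplets under 5000 UMIs held 41.8% and 35.3% of Khk and 45.5% and 33.2% of Sord. Hepatocyte-like droplets made up 79.5% and 64.9% of kept droplets, which is a share of droplets and not of UMIs. It is no baseline for the UMI shares. At medians of 1186 and 1392.5 UMIs, against 1424 and 2309.5 for all kept droplets, hepatocyte-like droplets were shallower. The hepatocyte marker share of 5% that hepatocyte-like droplets needed was also passed by the median neutrophil-like droplet, at 5.83% and 6.92%, and the median stellate cell or fibroblast-like droplet, at 7.27% and 7.43%. Among the named types outside the hepatocytes with at least 30 cells in both libraries, Khk was at its highest value in plasmacytoid dendritic cell-like cells, with intervals apart from those of all the other types per Alb UMI but not in CPM.

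Alb, the main transcript of hepatocytes, was counted at 38.8 to 110 UMIs per cell in the classes outside the hepatocytes, so levels there were also set against it. No empty droplets were analysed here, and the part of free RNA in these levels was not tested. In deep hepatocyte-like cells Khk was at 16.1 UMIs per 1000 Alb UMIs (15.8 to 16.4) with suffix 1 and at 17.7 (17.3 to 18.2) with suffix 2. Over the depth ranges of all hepatocyte-like droplets it ran from 13.5 (12.6 to 14.5) to 32.3 (31.1 to 33.5) with suffix 1 and from 16.5 (15.9 to 17.2) to 26.0 (24.9 to 27.1) with suffix 2, highest in both at 2000 to under 5000 UMIs. It was at 14.5 (13.2 to 15.7) and 18.6 (17.2 to 20) in T or NK cell-like cells, at 19.5 (16.9 to 22.4) and 20.6 (17.6 to 24.0) in B cell-like cells, at 18.4 (16.7 to 20.2) and 17.0 (15.8 to 18.3) in Kupffer cell or macrophage-like cells and at 20.3 (17.0 to 24.1) and 19.6 (16.8 to 22.8) in endothelial cell-like cells.

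In plasmacytoid dendritic cell-like cells, gated on Siglech, Ccr9, Klk1, Cox6a2, Runx2 and Pacsin1, Khk was at 38.8 per 1000 Alb UMIs (33.1 to 45.2) in 72 cells with suffix 1 and at 36.2 (30.6 to 42.6) in 62 cells with suffix 2. These intervals lay above those of each other named type with at least 30 cells in both libraries, but with suffix 1 the interval overlapped that of hepatocyte-like droplets of 2000 to under 5000 UMIs. The 130 and 122 mixed droplets, which carried markers of more than 1 type and entered no named type, had Siglech, Klk1, Runx2 and Cox6a2 among their leading genes in both libraries, and Khk was lower there, at 24.6 (21.7 to 27.9) and 23.9 (21 to 27.0) per 1000 Alb UMIs. The cells held 2.35 (2.01 to 2.73) and 2.45 (2.08 to 2.87) Khk UMIs each, against 0.751 (0.689 to 0.818) and 1.14 (1.06 to 1.23) in T or NK cell-like cells, while Alb was at 60.5 and 67.7 UMIs per cell against 52.0 and 61.4. In CPM, Khk was at 347 (297 to 404) and 384 (325 to 450), below the 614 and 734 of the deep hepatocyte-like cells and overlapping with neutrophil-like cells, which had 296 (244 to 356) and 369 (271 to 490) at shallower medians of 2495 and 1996 UMIs.

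The cells were also compared at equal depth. At 5000 UMIs per cell, 76.6% of 64 plasmacytoid dendritic cell-like cells with suffix 1 (64.3% to 86.2%) and 68.6% of 51 with suffix 2 (54.1% to 80.9%) held a Khk UMI, against 46.8% (40.6% to 53.0%) and 55.1% (47.4% to 62.6%) of T or NK cell-like cells. The intervals were apart with suffix 1 and overlapped with suffix 2, where the mean was 1.80 UMIs per thinned cell against 1.18. In B cell-like cells the thinned share was 59.5% of 42 cells (43.3% to 74.4%) and 38.9% of 18 cells (17.3% to 64.3%), which overlapped with the plasmacytoid dendritic cell-like cells in both libraries. Thinned to 2000 UMIs, the shares with suffix 2 were 47.5% (34.6% to 60.7%) and, in B cell-like cells, 44.2% (36.0% to 52.6%), at means of 0.639 and 0.646 UMIs. Before thinning, the shares of plasmacytoid dendritic cell-like cells were 81.9% and 83.9%, at medians of 6655 and 6297 UMIs.

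The other members did not follow Khk in these cells. Per 1000 Alb UMIs, Tkfc was at 7.11 (4.83 to 10.1) and 6.43 (4.24 to 9.38), Sord at 8.95 (6.36 to 12.3) and 7.86 (5.41 to 11.1), and Pklr, with 6 and 2 UMIs, at 1.38 (0.505 to 3) and 0.477 (0.0577 to 1.72). Each was below the deep hepatocyte-like cells of its library, which had 9.86 and 8.61 for Tkfc, 15.1 and 11.2 for Sord, and 4.25 and 2.62 for Pklr, though the Tkfc intervals overlapped in both libraries and the Sord intervals (10.8 to 11.5 in the hepatocyte-like cells) with suffix 2. The Sord value with suffix 2 rests on 33 UMIs, 11 of them in 1 cell, and in CPM it went from 83.3 to 54.0 when the marker share needed for the type was 0.5% and to 54.5 with a mitochondrial limit of 10%. Conventional dendritic cell-like cells, with 34 and 47 cells, had Khk at 23.0 per 1000 Alb UMIs (18.1 to 28.9) and 16.9 (13.4 to 21.2), which overlapped with B cell-like cells in both libraries.

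**Figure D4:**
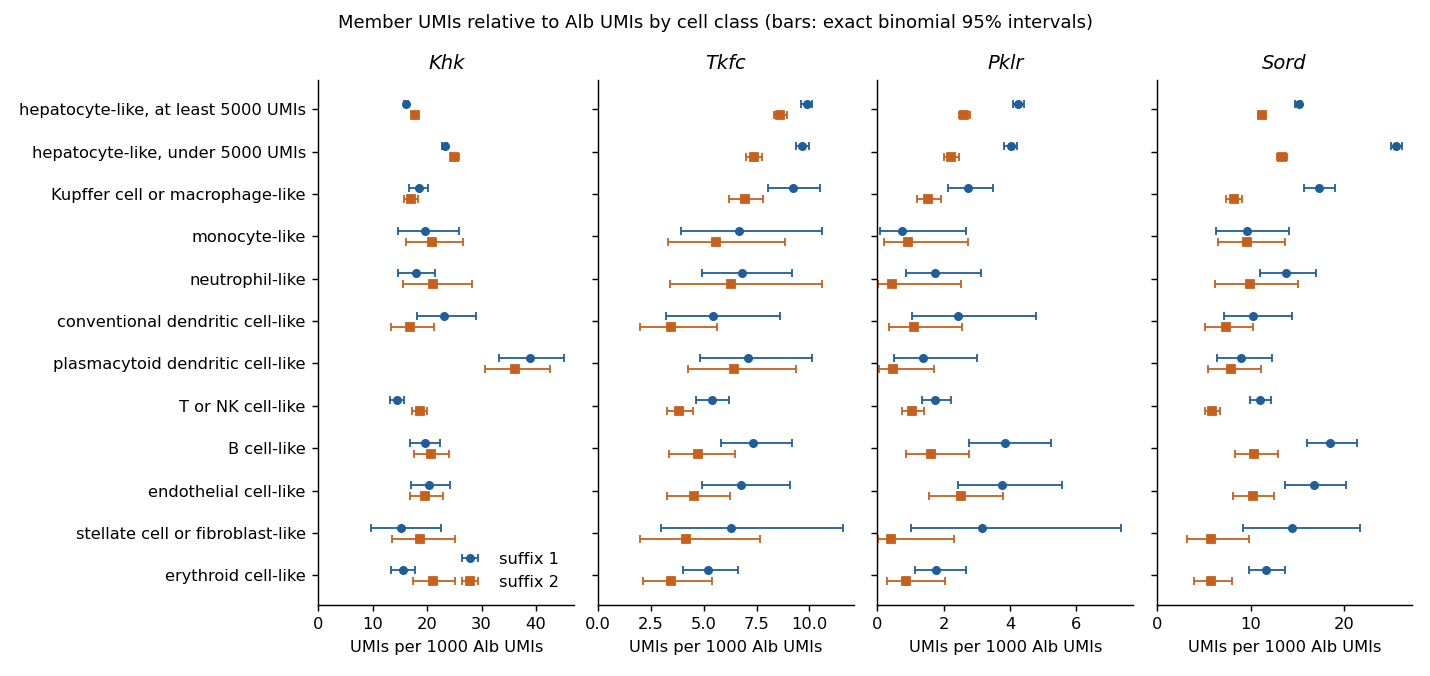
UMIs of 4 members per 1000 Alb UMIs in each cell class with at least 30 cells in both libraries. Points are ratios of summed UMIs and bars 95% counting intervals. In the Khk panel the plasmacytoid dendritic cell-like cells stand to the right at 38.8 and 36.2, and in the other panels the same cells lie to the left of the deep hepatocyte-like cells.

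Tkfc per 1000 Alb UMIs was at 9.20 (8.03 to 10.5) and 6.97 (6.21 to 7.80) in Kupffer cell or macrophage-like cells, which overlapped with deep hepatocyte-like cells with suffix 1 and lay below them with suffix 2. Sord per 1000 Alb UMIs was at 11 (9.98 to 12.2) and 5.89 (5.16 to 6.70) in T or NK cell-like cells, below the 15.1 and 11.2 of the deep hepatocyte-like cells, and higher with suffix 1 in both classes. Slc2a5 had 0 to 3 UMIs in every other named type, and 3 UMIs in 327 Kupffer cell or macrophage-like cells with suffix 1 were the most. In the 708 and 644 T or NK cell-like cells it had 2 and 1 UMIs, or 0.546 CPM (0.0661 to 1.97) and 0.312 CPM (0.00791 to 1.74), below the 7.19 and 4.84 CPM of deep hepatocyte-like cells, with intervals apart. Per 1000 Alb UMIs the Slc2a5 values were 0.0543 (0.00658 to 0.196) and 0.0253 (0.00064 to 0.141) against 0.189 (0.155 to 0.228) and 0.117 (0.0832 to 0.160), with intervals that overlapped in both libraries.

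Droplets that passed no gate numbered 242 with suffix 1 and 93 with suffix 2. Those with suffix 1 had Khk at 55.2 (51.4 to 59.3), Tkfc at 28.6 (25.9 to 31.5), Pklr at 17.5 (15.4 to 19.8) and Sord at 90.0 (85.0 to 95.2) per 1000 Alb UMIs, with intervals above those of the deep hepatocyte-like cells on this scale. In CPM the order was another, with Khk at 493 and Tkfc at 255, below the 614 and 376 of the deep cells, Pklr at 156 (138 to 177) against 162 (156 to 169), which overlapped, and Sord at 802 against 574. With suffix 2, per 1000 Alb UMIs, Khk was at 19.3 (15.9 to 23.3), Tkfc at 7.30 (5.26 to 9.89), Pklr at 4.70 (3.09 to 6.84) and Sord at 50.1 (44.3 to 56.4), and of these the Pklr and Sord intervals lay above those of the deep cells. In CPM, Khk, Tkfc and Pklr with suffix 2 were at 181, 68.4 and 44.0, below the 734, 356 and 108 of the deep cells, and Sord was at 469 (416 to 527) against 463 (448 to 478), which overlapped. With suffix 1 the Alb level was low at 60.8 UMIs per cell, and the median share of hepatocyte marker UMIs was 4.24%, under the 5% needed for the hepatocyte-like class. When the needed share was lowered to 2%, Khk in deep hepatocyte-like cells was at 605 CPM and 708 CPM.

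Among the other genes of fructose uptake, fructolysis and the polyol pathway, 9 of 13 passed the level filter, 1 was past 2-fold higher with suffix 1 and 0 with suffix 2, and the median log2 ratio was 0.15 against 0.03 for all genes. Aldh2 and Adh1, an aldehyde and an alcohol dehydrogenase, went in opposite directions, with ratios of 0.711 (0.688 to 0.735) and 1.31 (1.26 to 1.37). Slc2a2, encoding GLUT2, the main hexose transporter of hepatocytes, was at 329 CPM with suffix 1 and 217 CPM with suffix 2, a ratio of 1.52 (1.44 to 1.60). Aldoc, an aldolase known mainly from brain, was past 2-fold at 25.5 CPM and 5.84 CPM, a ratio of 4.36 (3.22 to 6.04). Akr1b3, the aldose reductase that supplies sorbitol to SORD, stayed under the filter at 9.68 CPM and 3.97 CPM.

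Among glycolysis genes and their regulators, 9 of 14 passed the filter, 3 with a ratio above 1 and 6 below it, 0 were past 2-fold higher with suffix 1, and the median log2 ratio of the list was -0.20. Gapdh was at 1050 CPM and 1315 CPM, Ldha at 332 CPM and 402 CPM, and Pgk1 at 205 CPM and 235 CPM, while Pgam1 stood at 157 CPM and 163 CPM. Pkm, the pyruvate kinase of most other tissues, was at 2.96 CPM and 3.6 CPM, below the level filter.

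Among Mlxipl, its partner Mlx and genes known to respond to them, 12 of 13 passed the filter, 2 were past 2-fold higher with suffix 1 and 0 with suffix 2, and the median log2 ratio was 0.24. Thrsp, a lipogenic regulator, was at 796 CPM and 305 CPM, a ratio of 2.61 (2.50 to 2.73), and Acacb, an acetyl-CoA carboxylase, at 58.1 CPM and 27.7 CPM, a ratio of 2.10 (1.81 to 2.44). Scd1, Acly and G6pc, the others of highest level with Thrsp, had ratios of 0.909, 1.17 and 1.04. Mlxipl itself was at 51.6 CPM and 55.3 CPM, a ratio of 0.934 (0.830 to 1.05).

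Likeness between genes is given as a description, since the points compared share libraries and may share free RNA, whose part was not tested. Over 24 combinations of cell class and library, the genes with log2 levels most like a member's were named from 7671 genes by Pearson's r. For Khk they were Ndufb9, a subunit of respiratory complex I (r = 0.931), Qdpr (0.920) and Asl (0.919). For Tkfc they were the fasting-responsive enzymes Tat (0.975) and Pck1 (0.972), and Uroc1 (0.964). For Pklr they were the citrate carrier Slc25a1 (0.937), Hoga1 (0.933) and the member Sord (0.920), and for Sord those given here were Aldh1l1 (0.974) and Tcea3 (0.971). Among the members themselves, Tkfc and Sord were the most alike (0.946) and Khk and Pklr the least (0.654). Slc2a5 was left out, since its level was under the 10 CPM added before the logarithm in every class.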

How the data were processed

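The authors deposited raw UMI counts of each gene in each barcode. Their matrix names Cell Ranger 7.1.0, with STAR 2.7.2a, bcl2fastq 2.20.0 and mm10 also named in the submitters' processing notes. Perfused and digested liver cells were purified on Percoll and loaded on 1 capture lane per sample for 3' libraries. How cells were called and whether intronic reads counted is not stated in those notes or the methods, and whether 3' tags of Cebpa lie in the deleted part is unknown.

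Droplets with at least 500 UMIs, 200 genes and at most 25% mitochondrial UMIs were kept and typed one by one from 13 marker lists, without clustering and without a doublet caller. A type needed 3 markers and 0.2% of UMIs (erythroid 10%), and droplets in which the next type had more than the first's count divided by 3 were left out as mixed (130 and 122). Hepatocyte-like droplets passed no other gate and had 5 of 15 markers and 5% of UMIs. UMIs were summed and given with exact Poisson, and shares and ratios with exact binomial (Clopper-Pearson), 95% intervals. In the ratios over all genes, counts under 3 UMIs were set to 3. This floor is below the upper limit of the exact Poisson interval for a count of 0. The zonation score was the log2 ratio of pericentral (Glul, Cyp2e1, Cyp1a2, Oat, Slc1a2, Gulo, Lect2, Rgn) to periportal UMIs (Cyp2f2, Hsd17b13, Sds, Hal, Ass1, Pck1, Ctsc, Gls2), each with 1 added. Likeness used log2(CPM + 10) over classes of at least 30 cells and genes of at least 50 CPM in 1 of them, without mitochondrial, ribosomal protein and marker genes. Named genes were the members, the 4 of highest level and those past 2-fold in each pathway list, and the 3 genes most like a member other than Slc2a5. Other genes were named after their values were seen. Some results that this rule covers are not reported here. Members and lists were chosen with earlier results of these data known. The calculation of ratios and intervals was tested on simulated counts. Python 3.11.15, numpy 2.4.6, scipy 1.17.1, pandas 2.3.3 and matplotlib 3.10.9 were used. Of 32285 gene IDs, 99.8% were found in GENCODE M21.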

Additional observations from a re-analysis of the deposited data

Results flagged for a closer look

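The droplets over the limit of 25% mitochondrial UMIs held UMIs of all 5 members above the level that a count of 0 allows. No comparison above used them, except that some entered the setting with a limit of 50%. There were 5675 such droplets with suffix 1 and 8886 with suffix 2, with medians of 1717 and 2004.5 UMIs and of 47.1% and 52.1% mitochondrial UMIs, and 5294 and 8514 met the hepatocyte-like rule. In these droplets Khk was at 292 CPM with suffix 1 and 389 CPM with suffix 2, Tkfc at 87.1 CPM and 53.8 CPM, Pklr at 37.8 CPM and 15.9 CPM, Sord at 179 CPM and 91.2 CPM, and Slc2a5 at 3.03 CPM and 2.38 CPM. With mitochondrial genes out of the total, Khk was at 664 CPM and 896 CPM there, against 733 CPM and 859 CPM in the deep hepatocyte-like cells, Tkfc at 199 CPM and 124 CPM against 448 CPM and 417 CPM, Pklr at 86.1 CPM and 36.5 CPM against 194 CPM and 127 CPM, and Sord at 408 CPM and 210 CPM against 685 CPM and 542 CPM. Tkfc was at 29.9 and 13.8 UMIs per 100 Khk UMIs there, against 61.2 and 48.6 in the deep hepatocyte-like cells below the limit. Khk was at 10.2 and 12.4 UMIs per 1000 Alb UMIs, against 16.1 and 17.7.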

How the results depend on the processing

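Levels are CPM in deep hepatocyte-like cells, suffix 1 before suffix 2. With a mitochondrial limit of 10%, Khk was at 879 and 964, Pklr at 149 and 90, Sord at 633 and 550 and Tkfc with suffix 2 at 411, and the ratios of suffix 1 to suffix 2 were 0.912 for Khk, 1.65 for Pklr, 1.15 for Sord and, turned in direction, 0.916 for Tkfc. With a limit of 50%, Khk was at 588 and 691, Tkfc at 358 and 325, Pklr with suffix 2 at 100 and Sord with suffix 2 at 437, and the Sord ratio was 1.3. Without mitochondrial genes in the total, Khk was at 733 and 859, Tkfc at 448 and 417, Pklr at 194 and 127 and Sord at 685 and 542. With a minimum of 2000 UMIs, Khk was at 644 and 768, Sord with suffix 1 at 640 and Tkfc with suffix 2 at 343, and with 10000 UMIs Sord was at 561 and 445. With a hepatocyte marker share of 10%, Khk was at 633 and 766 and Sord at 544 and 440, and with 2%, Khk with suffix 2 was at 708 and Sord with suffix 1 at 591. As a mean of each cell's CPM, Sord was at 631 and 490. In hepatocyte-like cells under 5000 UMIs the ratio was 0.799 for Khk, 1.13 for Tkfc and 1.65 for Sord, and for Slc2a5 it turned to 0.772. Among cells of at least 20000 UMIs, the periportal to pericentral ratio with suffix 2 was 1.32 for Khk and 1.52 for Tkfc. Per Alb UMI it was 1.11 and, turned, 0.697 for Khk, 1.06 and, turned, 0.823 for Tkfc, 0.909 and 0.688 for Pklr, turned in both libraries, and 0.588 and 0.43 for Sord. The cause of these shifts was not tested. Of the other recomputed values of these kinds, 65 stayed within their interval or range. Of the single values for Slc2a5, the other cell types and the thinned shares, 81 did and 32 did not, among them all 10 shares at 2000 UMIs per cell, which are lower by construction. The marker share of 2%, the removal of shared barcodes, the cells of at least 20000 UMIs, the scaling to Alb, and the limits on depth and mitochondrial UMIs for the ratios were chosen after seeing the data.

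No paired analysis was possible because each genotype has 1 sample and the barcode suffixes carry no genotype. Doublets remain, counting intervals leave out differences between animals, and Slc2a5 is limited by its 107 and 39 UMIs.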
